A study of Mus musculus with 8 samples.

Results

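Mitochondrial protein import and the chaperones that receive imported proteins were followed in primary mouse osteoblasts, the bone-forming cells, isolated from the calvaria (skull vault) of newborn mice. The 36 genes were picked by symbol, as known parts of these pathways, from the 47706 entries of the gene count table, and all 36 were among the 16736 genes with enough counts to be tested. Cells of 8 cultures were differentiated for 7 days and then treated for 24 h, 4 with parathyroid hormone (PTH) and 4 with vehicle. PTH, given intermittently, builds bone, and it acts on osteoblasts through a receptor that raises cyclic AMP. Both groups carry the prefix Con in their labels, which give no genotype, strain or sex, and the study's methods describe serum starvation before treatment and the human 1-34 fragment of the hormone. The sample labels call the differentiation adipogenic whereas the methods describe an osteogenic medium. Both groups shared that differentiation. No source says that the 4 samples of a group came from separate animals or isolations, so the p-values measure the spread between these cultures, which may be technical.

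Most mitochondrial proteins are made in the cytosol and enter the organelle unfolded. The TOM complex is the entry pore of the outer membrane, SAM inserts barrel-shaped proteins into that membrane, and the MIA relay traps small cysteine-rich proteins in the intermembrane space by oxidising them. Small TIM chaperones escort hydrophobic proteins across the intermembrane space, TIM22 inserts carriers into the inner membrane, and TIM23 passes proteins with a cleavable presequence to the matrix, where the import motor (PAM) pulls them in. Matrix peptidases then cut off the presequence, HSP60 and HSP10 help folding, and the proteases LONP1 and CLPP degrade what fails to fold. Osteoblasts draw on mitochondria for the ATP used in matrix production.

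The libraries held between 33605610 (PTH sample 2) and 56090654 (PTH sample 1) counts, and single members had between 174 and 15189 counts in a sample. Tnfsf11, which encodes RANKL and is a classical PTH target, rose from 1.42 ± 0.365 to 128 ± 20.01 CPM (counts scaled to a common library size; SD, n = 4 per group). Osteoblast markers were abundant in every sample, with a summed level of 92866 to 105322 CPM with vehicle and 86867 to 125497 CPM with PTH, and 0 of 10 were higher and 2 lower. The 8 adipocyte markers summed to 420 to 487 CPM with vehicle and 437 to 497 CPM with PTH. Other cell types' markers moved in part with treatment. The summed level of 10 macrophage markers was 976 to 1583 CPM with vehicle and 1537 to 1996 CPM with PTH, with 3 of 10 higher, and that of 5 chondrocyte markers was 316 to 331 and 369 to 485 CPM, with 2 of the 4 tested higher. Endothelial markers summed to 6.15 to 6.97 CPM with vehicle and 5.66 to 6.97 CPM with PTH, with Emcn at 0 in all samples, muscle markers to 5.50 to 7.45 and 4.15 to 7.43 CPM, and 8 markers of cycling cells to 246 to 304 CPM with vehicle and 240 to 285 CPM with PTH, with 1 higher and 4 lower. The part of these markers in the results below was not tested. In bulk RNA, fewer cells of a type and less RNA per cell cannot be told apart.

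The change in level with PTH also differed by annotated transcript length. Among all tested genes with transcripts under 1000 bases, 36.1% were called higher with PTH, and their median log2 fold change was 0.33, compared with -0.07 for transcripts of 3000 bases or more. The difference between the median log2 deviations of short and long transcripts was 0.30 and 0.37 in PTH samples 2 and 3, 0.11 in PTH sample 4 and -0.0077 in PTH sample 1, and it was between -0.23 and -0.084 with vehicle. These values did not overlap between the groups. Several import genes have very short transcripts, so for the genes called higher the value from a fit with a length offset for every sample is given as well, and the calls that were lost without PTH samples 2 and 3 are named. The offset also removes any effect of PTH that follows length. A response of short transcripts to PTH and a difference between libraries cannot be told apart here, and a call lost with the offset is not shown to be false.

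With PTH, 15 of the 36 import and chaperone genes were higher and 0 were lower (edgeR's quasi-likelihood test, Benjamini-Hochberg adjusted p under 0.05 over all genes tested). Without adjustment, 16 had a p under 0.05 with higher and 1 with lower levels, and DESeq2 called 14 and 0. Across all genes 23.3% were called higher and 22.5% lower. The median log2 fold change was 0.19 for the 36 genes and -0.00081 for all genes tested. Rises were moderate, with log2 fold changes between 0.22 and 0.97 in the 15 genes called. In 11 of the 15, all 4 PTH samples lay above all 4 vehicle samples, and in 0 of the 36 genes did they all lie below, where 21.2% of all genes had PTH above and 21.8% had PTH below. With the length offset, 10 members were higher and 1, Timm9, was lower, beside 23.2% higher and 20.6% lower of the genes that could be fitted that way. Of the 11 members with transcripts under 1000 bases, 8 (72.7%) were higher without the offset and 3 with it. Of all tested genes that short, 36.1% were higher without the offset, and 399 of 2205 with it. Of the 25 longer members 7 (28%) were higher in both fits. Without the offset, 20.6% of tested genes of 1000 to under 3000 bases were higher, and 22.4% of those of 3000 or more. With the offset, 1732 of 7697 and 1632 of 6301 genes of these classes were higher.

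**Figure D1:**
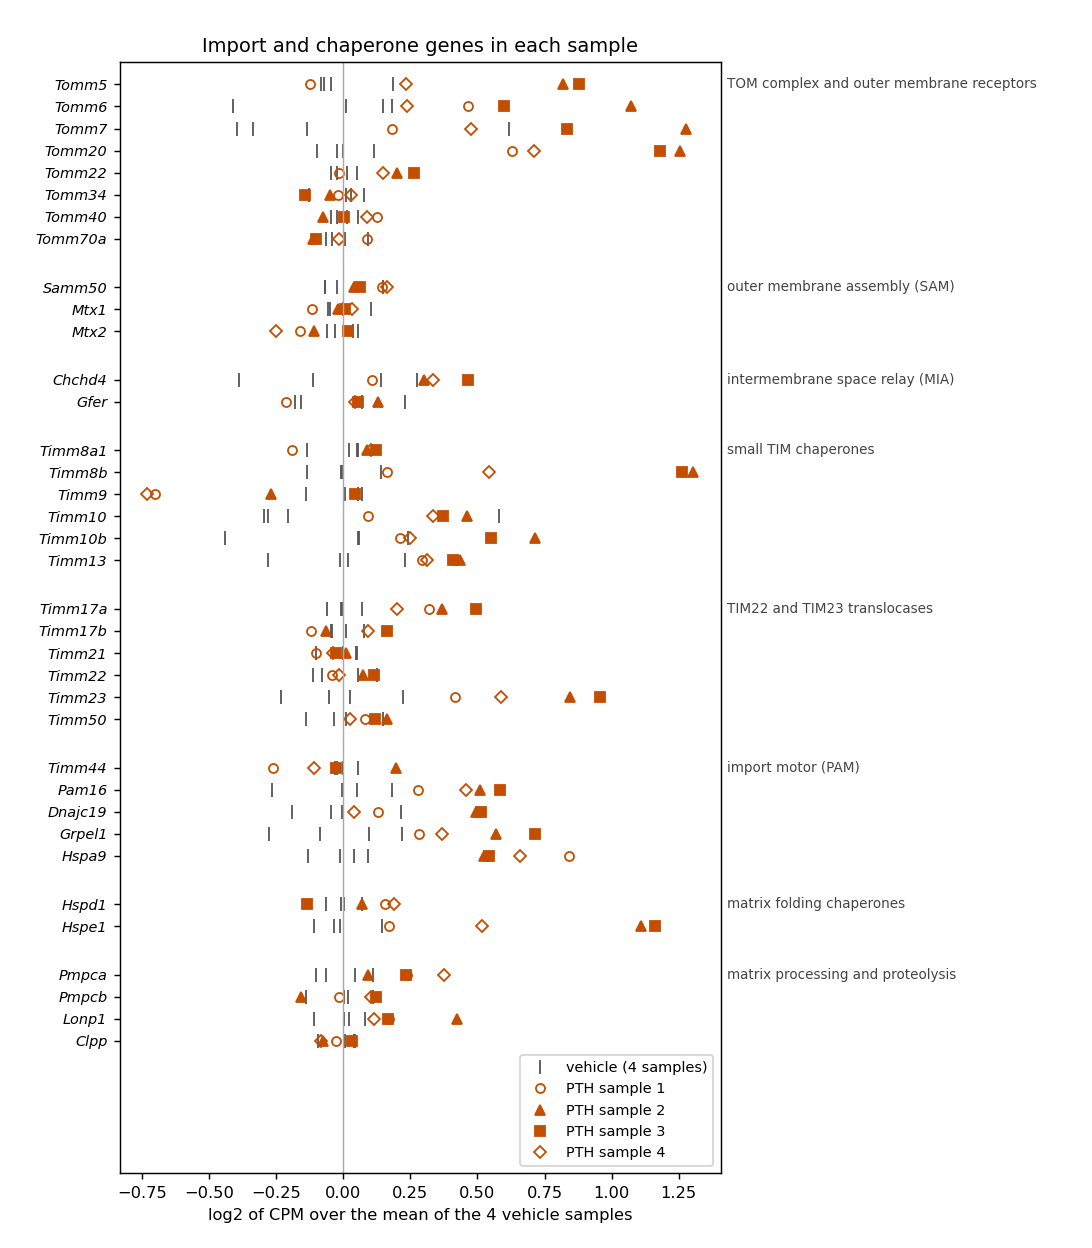
Log2 of the CPM in each sample over the mean of the 4 vehicle samples, for the 36 genes grouped by role; grey ticks are vehicle samples and orange symbols PTH samples 1 to 4. PTH samples 2 and 3 (filled symbols) lie farthest to the right in short-transcript genes such as Timm8b and Hspe1, and PTH sample 1 does so in Hspa9.

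The 36 genes did not all follow the same pattern across the cultures. Their summed level was 1352 to 1406 CPM in the vehicle samples and 1625 to 1835 CPM in the PTH samples. The 25 members with longer transcripts summed to 1092 to 1127 CPM with vehicle and to 1329 to 1373 CPM with PTH. Not all of them shared in that rise, as 18 of the 25 were not called and the median log2 fold change of the 25 was 0.08. Hspa9 went from a mean of 165 to 259 CPM and Tomm20 from 79.6 to 156 CPM, so both weighed heavily in the sum. The 11 short ones summed to 247 to 279 CPM with vehicle and to 295, 462, 459 and 334 CPM in PTH samples 1 to 4. Single longer members differed from the sum of the longer ones, Tomm20 being highest in PTH samples 2 and 3 and Hspa9 in PTH samples 1 and 4. PTH samples 2 and 3 were both above PTH samples 1 and 4 in 12 of the 15 genes called higher. The same held in 22 of all 36 genes, and the share over all genes tested is not given here. Without PTH samples 2 and 3, 6 calls were lost, namely Tomm5, Tomm6, Tomm7, Timm10b, Timm13 and Lonp1. For Timm13 the log2 fold change was then 0.32, compared with 0.36 in all samples, and the adjusted p was 0.0504. The 7 genes called higher in every alternative fit were Tomm20, Timm8b, Timm17a, Timm23, Grpel1, Hspa9 and Hspe1.

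**Figure D2:**
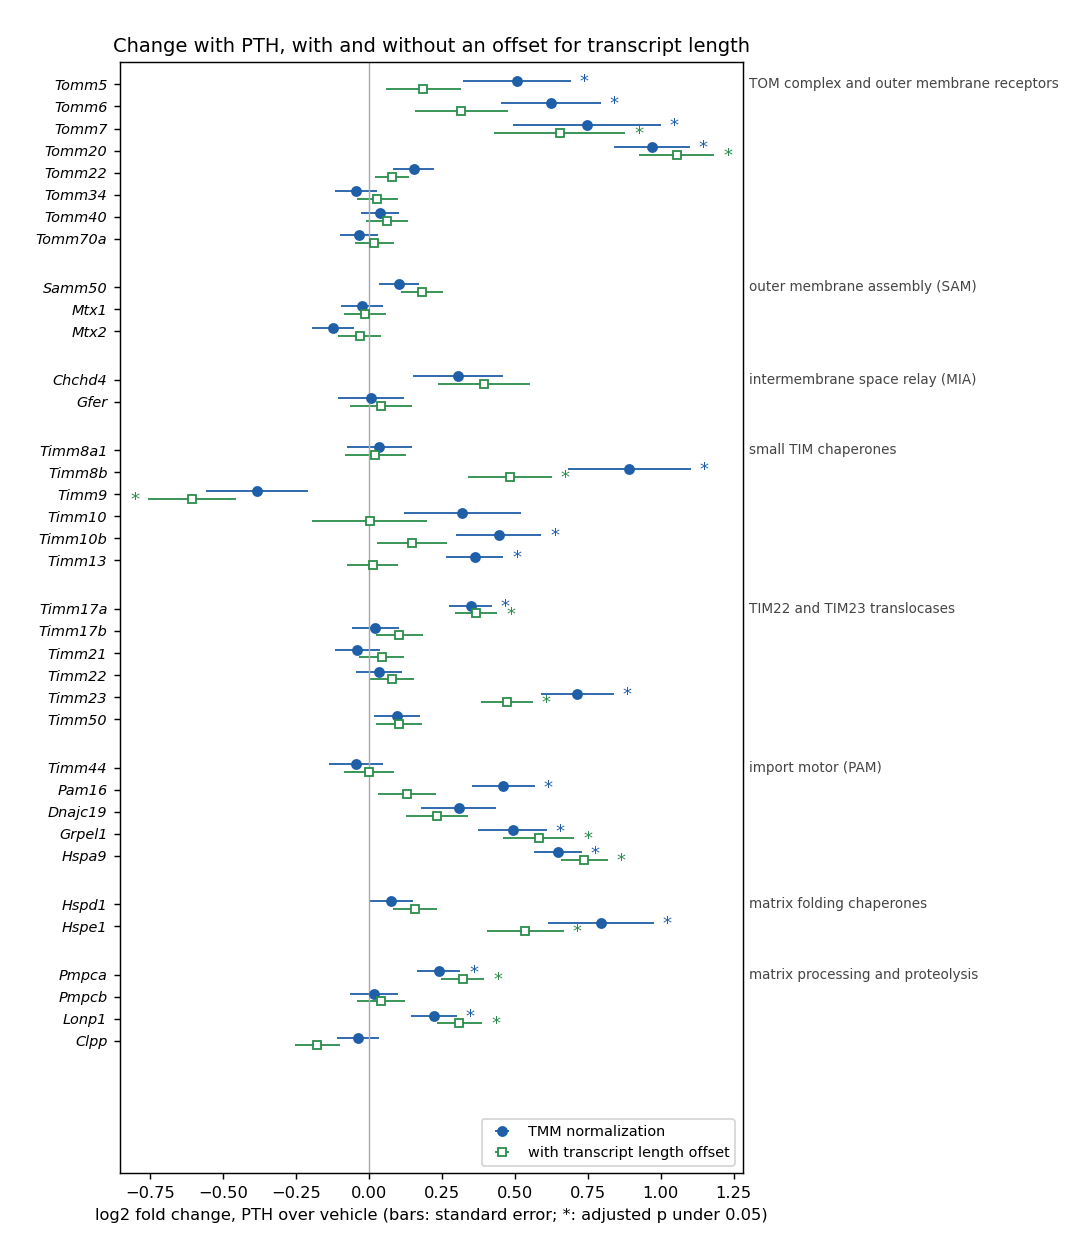
Log2 fold change, PTH over vehicle, of the 36 genes grouped by role, with standard errors, without (blue circles) and with (green squares) the transcript length offset; stars mark an adjusted p under 0.05. Of the 15 blue stars, all on the side of higher levels, 10 have a green star too, and Timm9 has a green star on the side of lower levels.

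At the outer membrane, 4 of the 8 TOM genes rose with PTH, the receptor Tomm20 the most and the small subunits Tomm5, Tomm6 and Tomm7 less firmly. Of all genes tested, 23.3% were called higher. Tomm20 encodes the receptor that recognises presequences. It was at 86.3, 79.6, 78.4 and 74.3 CPM in vehicle samples 1 to 4 and at 123, 190, 180 and 130 CPM in PTH samples 1 to 4. Every PTH sample was thus well above every vehicle sample, and the means were 79.6 ± 4.95 and 156 ± 34.1 CPM (SD, n = 4). The log2 fold change was 0.97 (SE 0.13, adjusted p = 7.59e-05), 1.05 with the length offset, 0.69 without PTH samples 2 and 3 and between 0.87 and 1.07 when each sample was left out in turn. The Tomm20 transcript spans 2680 bases, and the gene lies at chr8:126930667-126945844 on the minus strand (GRCm38).

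Tomm5, Tomm6 and Tomm7 encode small subunits that stabilise the pore. For Tomm6 the vehicle samples had 13.4, 20.3, 18.01 and 19.8 CPM and the PTH samples 24.6, 37.6, 27.1 and 21.1 CPM. The groups did not overlap, although PTH sample 4 was close to the vehicle samples, and the log2 fold change of 0.62 (SE 0.172, adjusted p = 0.0106) fell to 0.32 with the length offset (adjusted p = 0.127). Tomm7 had 23.8, 14.1, 12.3 and 11.8 CPM with vehicle and 17.6, 37.6, 27.6 and 21.6 CPM with PTH, and the log2 fold change was 0.75 (SE 0.253, adjusted p = 0.0292), or 0.65 with the offset (adjusted p = 0.032). Vehicle sample 1 was higher than PTH samples 1 and 4, so the groups overlapped. Tomm5, whose transcript is only 659 bases long, had 30.8, 26.3, 25.6 and 25.8 CPM with vehicle and 24.9, 47.8, 49.8 and 31.9 CPM with PTH. PTH sample 1 was the lowest of all 8 samples, the log2 fold change was 0.51 (SE 0.185, adjusted p = 0.0413), and with the offset it was 0.19 (adjusted p = 0.269). Both Tomm5 and Tomm7 lost their call in 5 of 8 leave-one-out fits, those without PTH sample 2, PTH sample 3 or vehicle samples 2, 3 or 4. Leaving out PTH samples 2 and 3 together gave log2 fold changes of 0.08 for Tomm5, 0.37 for Tomm6 and 0.35 for Tomm7 (adjusted p = 0.627, 0.0763 and 0.287). The Tomm6 entry shares its assembled locus with Gm21981 and Prickle4, so that the split of reads between them is uncertain.

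The pore itself, Tomm40, and the remaining receptors gave no call. Tomm22, the receptor that organises the complex, had 49.2, 48.1, 46.8 and 46.1 CPM with vehicle and 47.1, 54.6, 57.1 and 52.7 CPM with PTH (log2 fold change 0.15, adjusted p = 0.0974), and of the leave-one-out fits the one without PTH sample 1 called it higher. Log2 fold changes were 0.04 for Tomm40, -0.04 for Tomm34, a cytosolic cofactor of import, and -0.03 for Tomm70a, the receptor for carrier proteins (adjusted p = 0.673, 0.645 and 0.707). Within TOM the genes called higher were thus the presequence receptor and 3 small subunits.

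None of the 3 genes of outer membrane assembly and none of the 2 genes of the MIA relay passed the test. Samm50, the barrel-inserting subunit of SAM, gave 0.10 on the log2 scale (adjusted p = 0.243). Its partners were at 23.1, 23.2, 25.8 and 24.0 CPM with vehicle and 22.2, 23.7, 24.1 and 24.6 CPM with PTH for Mtx1, and at 40.9, 40.5, 38.6 and 37.8 and then 35.3, 36.6, 40.0 and 33.2 CPM for Mtx2. These correspond to log2 fold changes of -0.02 and -0.12 (adjusted p = 0.812 and 0.193). Chchd4, the import receptor of the MIA relay, had 7.27, 4.59, 6.63 and 5.56 CPM with vehicle and 6.48, 7.402, 8.30 and 7.58 CPM with PTH. The change of 0.30 on the log2 scale (SE 0.154) did not pass the test (adjusted p = 0.128, and 0.0611 with the length offset). For Gfer, the sulfhydryl oxidase that recycles CHCHD4, the vehicle samples had 18.3, 16.4, 13.8 and 14.0 CPM and the PTH samples 13.5, 17.1, 16.2 and 16.1 CPM, and the log2 fold change was 0.01 (adjusted p = 0.966).

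Of the 6 small TIM chaperones, Timm8b, Timm13 and Timm10b were called higher, but the length offset left only Timm8b. Without the offset, 23.3% of all genes tested were higher, and 36.1% of those with transcripts under 1000 bases. Timm8b was at 21.7, 19.6, 17.9 and 19.6 CPM in the vehicle samples and at 22.1, 48.7, 47.2 and 28.7 CPM in the PTH samples. PTH sample 1 was only just above the highest vehicle sample, whereas PTH samples 2 and 3 were far above it. The log2 fold change was 0.89 (SE 0.211, adjusted p = 0.00438), with means of 19.7 ± 1.54 and 36.7 ± 13.3 CPM, and it was 0.48 with the length offset (adjusted p = 0.0162) and 0.38 without PTH samples 2 and 3 (adjusted p = 0.0244). The gene lies at chr9:50603910-50605320 and its transcript is 518 bases long.

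Timm13, which pairs with the TIMM8 proteins, had 34.9, 30.0, 29.5 and 24.5 CPM with vehicle and 36.4, 40.1, 39.4 and 36.9 CPM with PTH. The groups were separate and the log2 fold change was 0.36 (SE 0.0977, adjusted p = 0.00928), but with the length offset it was 0.01 (adjusted p = 0.925). Timm10b, a subunit at the TIM22 complex, had 27.8, 27.9, 19.7 and 31.6 CPM with vehicle and 31.0, 43.9, 39.2 and 31.8 CPM with PTH. Its groups overlapped. The log2 fold change was 0.44 (SE 0.146, adjusted p = 0.0259), it was 0.15 with the offset (adjusted p = 0.355), and the call was lost without PTH sample 2, PTH sample 3 or vehicle sample 3. Its entry shares a locus with Dnhd1.

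The chaperones Timm9 and Timm10, which form a shared ring, did not pass the test. Timm9 was at 6.23, 6.89, 7.14 and 7.20 CPM with vehicle and 4.21, 5.69, 7.07 and 4.14 CPM with PTH. The PTH samples were lower except for PTH sample 3, which lay within the vehicle range, and the log2 fold change of -0.38 (SE 0.174) did not pass the test (adjusted p = 0.0928). It was -0.61 with the length offset (adjusted p = 0.00565) and -0.70 without PTH samples 2 and 3 (adjusted p = 0.00292), and both of those fits called Timm9 lower. Timm10 had 4.17, 7.58, 4.13 and 4.39 CPM with vehicle and 5.40, 6.98, 6.55 and 6.39 CPM with PTH, with vehicle sample 2 the highest of all. Its log2 fold change was 0.32 (adjusted p = 0.215), 0.00 with the offset and 0.57 without vehicle sample 2, where it was called higher. Timm8a1, whose human counterpart is altered in deafness-dystonia syndrome, had 8.23, 8.24, 7.24 and 8.06 CPM with vehicle and 6.96, 8.46, 8.64 and 8.53 CPM with PTH (log2 fold change 0.04, adjusted p = 0.822).

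At the inner membrane translocases the channel gene Timm23 and its partner Timm17a rose with PTH, while the other 4 genes gave no call. Timm23 encodes the channel-forming subunit of the presequence translocase. Its level was 25.6, 18.7, 21.2 and 22.4 CPM in the vehicle samples and 29.3, 39.4, 42.6 and 33.0 CPM in the PTH samples. Each PTH sample exceeded each vehicle sample, the means were 22.0 ± 2.88 and 36.1 ± 6.03 CPM, and the log2 fold change was 0.71 (SE 0.126, adjusted p = 6.14e-04). The rise was 0.47 with the length offset (adjusted p = 9.22e-04) and 0.52 without PTH samples 2 and 3 (adjusted p = 0.00515). Timm23 lies at chr14:32180162-32201898, its entry shares a locus with Gm23946, and 6 other annotated genes share stretches of at least 150 bases at 95% identity or more with its transcripts.

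Timm17a, a labile subunit of the same translocase, had 38.1, 36.1, 36.2 and 34.8 CPM with vehicle and 45.2, 46.8, 51.1 and 41.7 CPM with PTH. The groups were fully separate. Its transcript is the longest of the called members at 7280 bases, and the log2 fold change was 0.35 (SE 0.0737, adjusted p = 0.00213), or 0.37 with the offset. The paralogue Timm17b had 29.3, 27.99, 27.0 and 26.9 CPM with vehicle and 25.5, 26.6, 31.1 and 29.6 CPM with PTH (log2 fold change 0.02, adjusted p = 0.842). Its groups overlapped. The log2 ratio of Timm17a to Timm17b was higher by 0.33 (SE 0.0784) in the PTH samples, with no overlap of the groups. The remaining genes were Timm21, Timm22 and the presequence receptor Timm50, with log2 fold changes of -0.04, 0.03 and 0.10 (adjusted p = 0.704, 0.754 and 0.346).

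In the import motor 3 of 5 genes rose, the mitochondrial HSP70 gene Hspa9 with its exchange factor Grpel1 and the regulatory J-like protein Pam16. The share called higher over all genes tested was 23.3%. Hspa9 provides the ATP-driven pull on incoming chains. It was at 151, 164, 170 and 176 CPM with vehicle and at 296, 238, 241 and 261 CPM with PTH. The groups were wide apart, and in contrast to the short transcripts PTH sample 1 was the highest. With means of 165 ± 10.8 and 259 ± 26.9 CPM the log2 fold change was 0.65 (SE 0.083, adjusted p = 5.27e-05), 0.74 with the length offset, and between 0.57 and 0.70 when each sample was left out.

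Grpel1, the nucleotide exchange factor of mitochondrial HSP70, was at 39.2, 31.7, 36.01 and 27.8 CPM with vehicle and 40.9, 49.9, 55.2 and 43.4 CPM with PTH. No PTH sample fell within the vehicle range. The log2 fold change was 0.49 (SE 0.118, adjusted p = 0.00478), and the transcript of 3528 bases gave 0.58 with the length offset (adjusted p = 0.00198). Pam16 had 14.6, 14.1, 16.0 and 11.8 CPM with vehicle and 17.1, 20.1, 21.2 and 19.4 CPM with PTH. Here too the groups were separate, with a log2 fold change of 0.46 (SE 0.107, adjusted p = 0.00392), but the offset reduced it to 0.13 (adjusted p = 0.312). Timm44, which tethers HSP70 to the channel, was at -0.04 on the log2 scale (adjusted p = 0.731), and Dnajc19, the J protein that stimulates HSP70, at 0.31 (SE 0.128, adjusted p = 0.0682). Dnajc19 was called higher in a fit with an offset for GC content (adjusted p = 0.0485) and without PTH sample 1, PTH sample 4 or vehicle sample 1, and was at 0.23 with the length offset (adjusted p = 0.0996).

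Of the folding pair HSP60 and HSP10, which act together as a chamber and its lid, the HSP10 gene was called higher and the HSP60 gene was not, although the difference between them did not pass its own test. Hspd1, encoding HSP60, was at 134, 122, 128 and 127 CPM with vehicle and at 143, 134, 117 and 146 CPM with PTH. The groups overlapped and the log2 fold change was 0.08 (SE 0.0759, adjusted p = 0.446). It was 0.19 without PTH samples 2 and 3, and was then called higher (adjusted p = 0.0291). Hspe1, encoding HSP10, had 78.3, 70.2, 69.1 and 65.7 CPM with vehicle and 79.8, 153, 158 and 101 CPM with PTH. PTH sample 1 was barely above vehicle sample 1, and PTH samples 2 and 3 were far above it. The log2 fold change was 0.80 (SE 0.181, adjusted p = 0.0034), 0.54 with the length offset (adjusted p = 0.00532) and 0.37 without PTH samples 2 and 3 (adjusted p = 0.011).

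**Figure D3:**
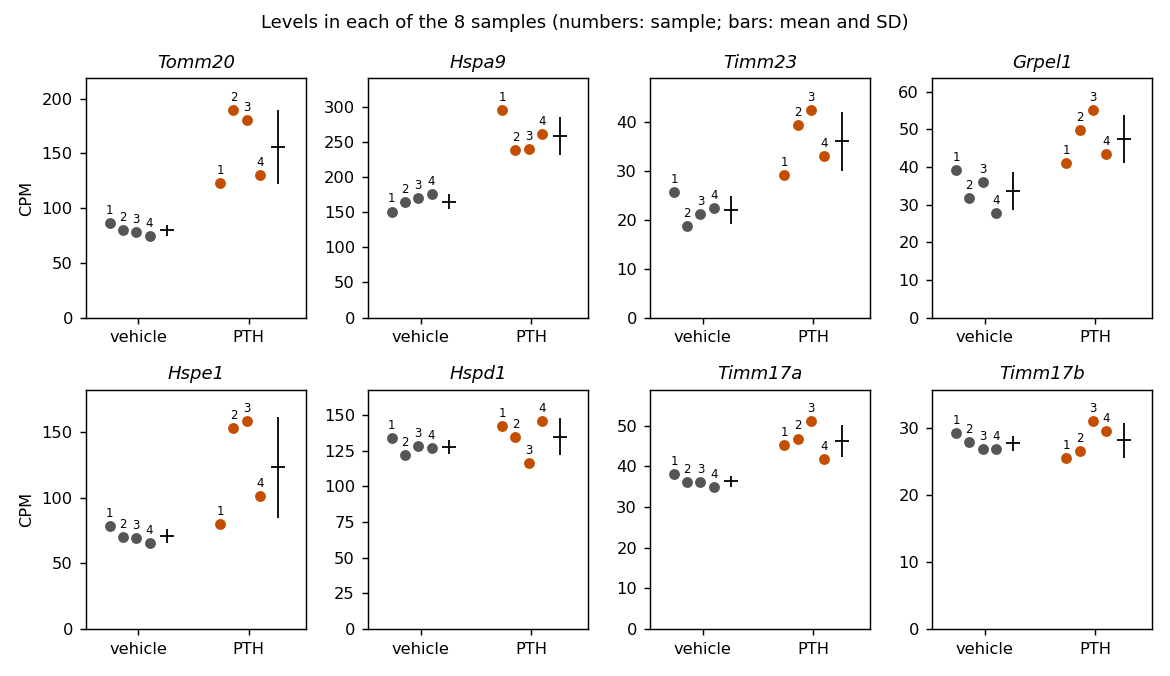
CPM of 8 import and chaperone genes in each vehicle and PTH sample (points, numbered by sample), with the mean and SD of each group (bars, n = 4); every axis starts at 0. All PTH points of Tomm20, Hspa9, Timm23 and Timm17a lie clear of the vehicle points, PTH sample 1 of Hspe1 at 79.8 CPM sits beside vehicle sample 1 at 78.3 CPM, and the groups of Hspd1 and Timm17b overlap.

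The log2 ratio of Hspe1 to Hspd1 was -0.78, -0.80, -0.89 and -0.95 in the vehicle samples and -0.84, 0.18, 0.44 and -0.53 in the PTH samples. PTH sample 1 lay within the vehicle range. The mean difference was 0.67 (SE 0.301) and did not pass an exact two-sided permutation test (p = 0.0857, adjusted p = 0.11 over 9 pairs). With adjustment for length it was 0.35 (p = 0.257 in the same exact permutation test). Both genes lie head to head, Hspd1 at chr1:55077835-55088243 on the minus strand and Hspe1 at chr1:55088132-55091307 on the plus strand, and the RefSeq start of Hspe1 is 95 or 216 bases from the 2 annotated starts of Hspd1.

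Promoter windows, 250 bases before to 50 after a RefSeq start (GRCm38.p6), were found for 33 of the 36 genes, 36 windows in all. The windows of 4 of the genes called higher in every alternative, those with the largest rises, are printed 5′ to 3′ on the strand of the gene, with motif matches in capitals.
Tomm20, chr8:126945872-126946171, minus strand: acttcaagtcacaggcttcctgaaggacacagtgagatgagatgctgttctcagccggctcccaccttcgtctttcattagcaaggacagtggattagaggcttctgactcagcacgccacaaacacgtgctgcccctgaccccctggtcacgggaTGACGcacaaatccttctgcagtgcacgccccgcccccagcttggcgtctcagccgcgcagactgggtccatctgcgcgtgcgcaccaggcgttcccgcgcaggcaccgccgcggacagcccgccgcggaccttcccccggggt
Timm8b, chr9:50603651-50603950, plus strand: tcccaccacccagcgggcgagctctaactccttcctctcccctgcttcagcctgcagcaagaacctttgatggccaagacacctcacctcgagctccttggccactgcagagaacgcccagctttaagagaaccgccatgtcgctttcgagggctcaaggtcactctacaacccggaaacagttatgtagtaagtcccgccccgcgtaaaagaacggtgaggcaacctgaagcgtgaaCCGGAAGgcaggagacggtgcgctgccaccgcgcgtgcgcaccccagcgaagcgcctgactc
Hspe1, chr1:55087898-55088197, plus strand: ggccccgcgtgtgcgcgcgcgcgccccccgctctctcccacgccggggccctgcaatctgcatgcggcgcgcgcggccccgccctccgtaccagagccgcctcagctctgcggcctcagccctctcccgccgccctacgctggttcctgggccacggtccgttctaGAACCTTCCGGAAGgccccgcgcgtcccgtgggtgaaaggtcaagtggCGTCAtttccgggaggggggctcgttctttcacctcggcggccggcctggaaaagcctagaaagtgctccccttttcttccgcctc
Timm23, chr14:32201842-32202141, minus strand: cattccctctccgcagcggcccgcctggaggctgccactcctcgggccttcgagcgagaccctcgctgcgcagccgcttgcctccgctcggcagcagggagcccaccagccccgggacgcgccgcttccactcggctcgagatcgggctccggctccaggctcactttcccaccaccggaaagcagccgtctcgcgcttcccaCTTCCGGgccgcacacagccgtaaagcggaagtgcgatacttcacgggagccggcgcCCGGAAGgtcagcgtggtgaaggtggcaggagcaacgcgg

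Motifs were searched on both strands, and a match is a run of letters, not evidence of binding. In Tomm20 the capitals are the core of the cyclic AMP response element, TGACG. In Timm8b and Timm23 they are the GABP motif CCGGAAG, GABP being an activator of many nuclear genes for mitochondrial proteins. In Hspe1 they are the heat shock element GAANNTTC with an overlapping pair of GABP matches, one on each strand, and further on the response element core on the minus strand. Most of this Hspe1 window is also the window of one of the Hspd1 starts, which holds the same matches. Among all members, 15 held the core TGACG, in 41.7% of their windows, compared with 20.8% of the 32851 windows of all genes and 29.2% of the windows of tested genes. This core was in 7 of the 13 called members that have a window and in 8 of the 20 others. GABP matches were in 44.4% of the members' windows, 8.86% of all windows and 15.5% of those of tested genes. They were found in 6 of the 13 called members that have a window and in 9 of the 20 others. The full cyclic AMP response element TGACGTCA was in 0 of the members' windows (1.79% of all windows and 2.87% of those of tested genes). The ATF4-CHOP composite TGATGNAAT was in 0 as well (0.965% and 0.484%). The NRF1 motif GCGCATGCG was in Timm13 alone (1.75% and 3.25%), and the heat shock element in Hspd1, Hspe1 and Timm9 (7.86% and 5.76%).

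Among the matrix processing and protease genes the rises were small. Pmpca, the presequence-binding subunit of the processing peptidase, was at 63.7, 65.4, 70.5 and 73.8 CPM with vehicle and 80.6, 72.9, 80.4 and 88.6 CPM with PTH. PTH sample 2 lay within the vehicle range, and the log2 fold change was 0.24 (SE 0.0751, adjusted p = 0.0209), or 0.32 with the length offset (adjusted p = 0.00377). The catalytic subunit Pmpcb had 38.2, 45.5, 42.2 and 42.6 CPM with vehicle and 41.7, 37.7, 45.9 and 45.2 CPM with PTH (log2 fold change 0.02, adjusted p = 0.877). Lonp1, the main ATP-dependent protease of the matrix, had 53.4, 46.7, 51.2 and 50.6 CPM with vehicle and 56.8, 67.6, 56.6 and 54.6 CPM with PTH. Its groups were separate by a narrow margin, with PTH sample 2 apart from the rest, and the log2 fold change was 0.22 (SE 0.0789, adjusted p = 0.0365), or 0.31 with the offset (adjusted p = 0.00636). The matrix protease subunit Clpp was at 21.1, 20.5, 19.2 and 21.005 CPM with vehicle and 20.04, 19.4, 20.9 and 19.3 CPM with PTH (log2 fold change -0.04, adjusted p = 0.70). Calls were lost in 4 of 8 leave-one-out fits for each of Pmpca (without PTH sample 3, PTH sample 4, vehicle sample 1 or vehicle sample 2) and Lonp1 (without PTH sample 2 or vehicle samples 2, 3 or 4).

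**Figure D4:**
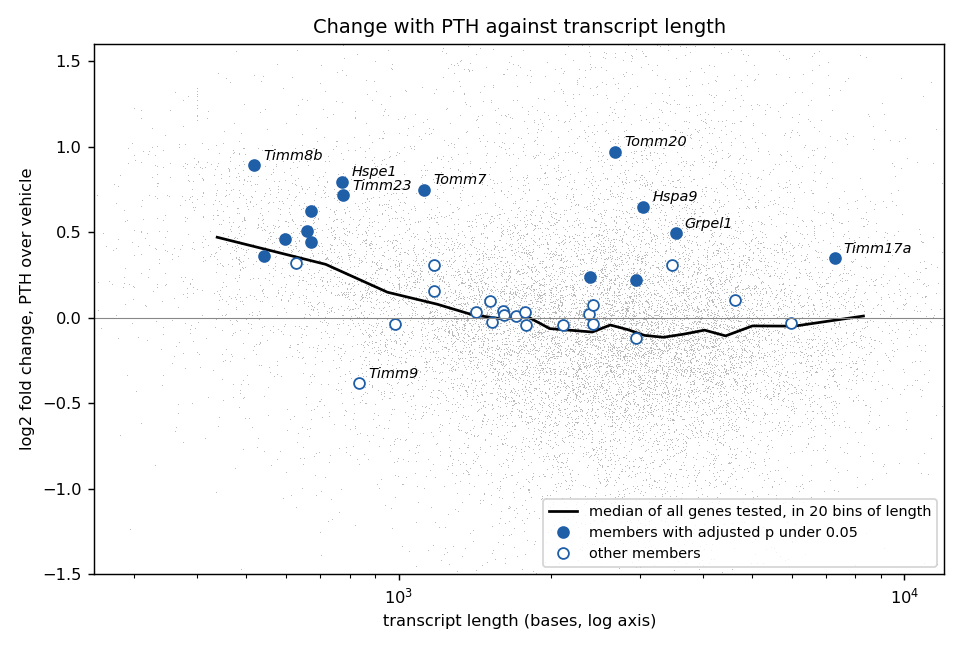
Log2 fold change, PTH over vehicle, against transcript length in bases on a log axis, for all tested genes with a length (grey dots), their median in 20 bins of length (line) and the members (circles, filled where the adjusted p is under 0.05); genes beyond the axis limits are not drawn. The line falls from above 0.33 for the shortest transcripts to near 0, and Tomm20, Hspa9, Grpel1 and Timm17a lie above it at 2680 bases or more.

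In 9 pairs of partner genes the log2 ratio within each sample was compared between groups. With 4 against 4 samples the smallest p an exact two-sided permutation test allows is 0.0286, and after adjustment over the 9 pairs the smallest value was 0.0643. At that limit, with no overlap, were Timm17a over Timm17b (0.33), Pmpca over Pmpcb (0.22), Lonp1 over Clpp (0.26) and Timm8a1 over Timm13 (-0.34). The last of these was 0.0074 after adjustment for length (p = 0.943 in the exact permutation test), the transcript of Timm13 being short. Timm10 over Timm9 was higher by 0.76, Chchd4 over Gfer by 0.31, Timm8b over Timm13 by 0.45 and Mtx1 over Mtx2 by 0.10, with exact permutation p = 0.0571, 0.0857, 0.257 and 0.286. None of the 9 ratios passed after adjustment. With so few samples none could pass unless most of the 9 reached the smallest possible p. The adjusted values therefore do not show that the ratios stayed the same.

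Per kilobase of transcript, Hspe1 had the highest vehicle level of the 36 genes, 91.5 CPM per kb. Timm13, Hspa9 and Hspd1 followed at 54.8, 54.2 and 52.8 CPM per kb, and their ranges over the vehicle samples overlapped, so that their order is not resolved. At the other end were Chchd4 at 1.73, Timm17a at 4.99 and Timm8a1 at 5.59 CPM per kb. The vehicle ranges of Timm17a (4.78 to 5.24) and Timm8a1 (5.09 to 5.80) overlapped, so their order is not resolved either. This scale rests on annotated transcript lengths, and which transcripts the cells made was not measured. The HSP10 gene was thus at the top of this scale and the MIA receptor at the bottom. A small TIM chaperone, the motor HSP70 and HSP60 came after HSP10.

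Other genes of mitochondrial import and quality control were read from the same fit. Of 17 further import genes tested, 6 were higher and 4 lower, shares of 35.3% and 23.5% beside 23.3% and 22.5% of all genes, and without PTH samples 2 and 3 the number higher was 3. The largest rise was that of Romo1, a small inner membrane protein that modulates the TIM23 channel (log2 fold change 0.94, adjusted p = 0.00298, 0.51 with the length offset), and the largest fall that of the aminopeptidase Xpnpep3 (-0.66, adjusted p = 1.38e-04). Tomm20l and Timm8a2 were below the count filter and Timm29 was not analysed here. The other matrix and inner membrane chaperones and proteases had 0 higher and 6 lower of 14, where 22.5% of all genes were lower (1 higher and 6 lower at an unadjusted p under 0.05, and 0 higher and 4 lower by DESeq2). They included Bcs1l, an assembly factor of complex III (-0.85, adjusted p = 4.75e-05), Clpx, the unfoldase partner of CLPP (-0.32), and the protease Oma1 (-0.49). With the length offset 1 was higher and 4 were lower, and 3 were lower in the fits without PTH sample 4, without vehicle sample 4, without PTH samples 2 and 3 or with the replicate number as a block.

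Genes for small proteins with twin cysteine motifs, which enter through the MIA relay, had 11 higher and 2 lower of 16 (68.8% and 12.5%). Across all genes tested 23.3% were higher and 22.5% lower, or 23.2% and 20.6% with the length offset. Cox19, a copper chaperone for cytochrome oxidase, rose the most (1.06, adjusted p = 5.74e-06), and Chchd5 fell the most (-0.96, adjusted p = 1.73e-05). The transcripts of this list are short, with a median of 855.5 bases, and with the length offset 6 were higher and 3 lower. Of all tested genes with transcripts under 1000 bases, 36.1% were higher and 4.22% lower without the offset. Without PTH samples 2 and 3, 7 were higher. Of 7 MICOS genes, which shape the cristae, 3 (42.9%) were higher and 2 (28.6%) lower, or 2 and 2 with the length offset. They went from Minos1 at 0.69 to Apool at -0.36, and without PTH samples 2 and 3 the number lower was 1. Mitochondrial ribosomal protein genes had 27 higher and 9 lower of 77 (35.1% and 11.7%), or 16 and 11 with the length offset. The number higher was 17 without PTH sample 3 and 14 without PTH samples 2 and 3. The extremes were Mrpl33 at 0.82 (0.39 with the length offset) and Mrpl45 at -0.77. Of 11 mitochondrially encoded protein genes tested 8 (72.7%) were higher. The number was 5 by DESeq2, 2 to 11 with each sample left out (2 without vehicle sample 2), 2 with the offset and 0 without PTH samples 2 and 3. The summed level of these genes was 12046 to 14938 CPM with vehicle and 12918, 26020, 19522 and 15772 CPM in PTH samples 1 to 4.

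Sequence shared with other genes limits how far some counts can be assigned. Of the 36 genes, 21 share at least 150 bases at 95% identity or more with another annotated gene, and 12 of these 21 are among the 15 called higher. They include Tomm20, with 5 such genes, Hspa9, with 1, and Hspe1, with 1. Timm8b and Timm13 share none. Not every match is a copy of the member, as the only match of Grpel1 is Tada2b and that of Pmpca is Inpp5e. How the alignment divided reads between genes that share sequence is not given in the sources used here, and the levels of these genes are to that extent uncertain.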

How the data were processed

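The authors aligned paired reads of poly(A)-selected libraries to GRCm38 (mm10) with HISAT2 and used StringTie2 for assembly. They deposited raw whole-number counts per gene, which the StringTie companion script estimates from coverage and read length. Versions, annotation release, strand setting and read length setting are not given in the sources used here. If several entries carried a symbol, the one with the highest mean count was used.

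Samples were grouped by their labels. Counts were filtered with filterByExpr (minimum count 10, minimum total 15), normalised by TMM and fitted with edgeR 4.0.16 (R 4.3.3, quasi-likelihood test, two-sided) across all genes, with Benjamini-Hochberg adjustment and a threshold of 0.05. CPM use TMM library sizes. Ratios of partner genes used log2(CPM + 0.1) and exact permutation tests over the 8 samples (70 assignments). Transcript lengths are medians over the GENCODE M21 basic set, using only the coding transcripts of a gene where it has any. To this annotation 46590 entries were matched, by Ensembl identifier where the entry had one and otherwise by a unique symbol. The length offset is a lowess curve of each sample's deviations on length (span 0.3). A GC offset was made in the same way. Shared sequence was found with blastn 2.17.0, and promoter windows come from RefSeq. DESeq2 1.42.0 was an alternative. The scripts were tested on simulated counts with the same dispersion for every gene and no trend with length. There edgeR recovered 66 of 100 changes of 0.5 and 97 of 100 changes of 1 on the log2 scale, with 7 false calls. Small changes can therefore go uncalled, and spread that differs between genes was not simulated.

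Values were given per sample for the 12 called genes with the largest changes, for any called lower and for the compared partners, and of each other list for the largest rise and fall. The member genes, the other lists and the tests were chosen with earlier results of these data known. Leaving out PTH samples 2 and 3 together was chosen after seeing the data. Same-numbered PTH and vehicle samples did not deviate together (correlations across genes between -0.0409 and 0.0274), so the numbers were not treated as pairs.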

Additional observations from a re-analysis of the deposited data

Results flagged for a closer look

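In each gene the samples of each group were searched for a sample far from the other 3 (gap to the nearest sample over the range of the group, above Dixon's critical value), and 4 of 72 searches found one, where chance gives about 1 in 20. Tomm5 was at 30.8 CPM in vehicle sample 1 and at 26.3 CPM in the nearest sample, a gap of 0.871 of the range. For Timm8a1 PTH sample 1 was at 6.96 CPM, below the nearest at 8.46 CPM (0.890). Timm10 was at 7.58 CPM in vehicle sample 2 and at 4.39 CPM in the nearest (0.924), and without that sample Timm10 was called higher (log2 fold change 0.57). PTH sample 2 had 67.6 CPM of Lonp1, compared with 56.8 CPM in the nearest (0.834), and without that sample Lonp1 was not called.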

How the results depend on the processing

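Of the 36 genes, 9 were higher at an adjusted p under 0.01, and 11 to 17 with each sample left out. The number lower was 0 to 1 with each sample left out, 1 (Timm9) with the length offset and 1 (Timm9) without PTH samples 2 and 3. With the replicate number as a block 13 were higher, without Tomm5 (adjusted p = 0.0752) and Lonp1 (0.0831), although the numbers mark no known pairing. Other settings gave 14 with DESeq2 (without Tomm7, adjusted p = 0.0594), 11 with no count filter and 16 with a GC offset, beside 15 as reported. Among genes called in neither fit the log2 fold change turned its sign in several settings: with the length offset for Tomm34 (0.029), Tomm70a (0.019), Timm21 (0.043) and Timm44 (0.00025), with the GC offset for Mtx1 (0.0056) and Gfer (-0.0027), with no filter for Gfer (-0.028), Timm8a1 (-0.0013), Timm17b (-0.013), Timm22 (-0.0023) and Pmpcb (-0.017), and without PTH samples 2 and 3 for Tomm34 (0.020), Tomm70a (0.051), Gfer (-0.066), Timm8a1 (-0.023) and Timm22 (-0.013). With each sample left out, the values were between -0.079 and 0.0016 for Tomm70a, -0.049 and 0.0093 for Mtx1, -0.051 and 0.086 for Gfer, -0.0098 and 0.103 for Timm8a1, -0.031 and 0.066 for Timm17b, -0.0054 and 0.076 for Timm22, -0.122 and 0.021 for Timm44, and -0.031 and 0.081 for Pmpcb. The cause of these turns was not tested.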

Other observations

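Some genes outside the mitochondria that handle unfolded proteins were higher with PTH. Of 17 cytosolic chaperones 7 (41.2%) were higher and 0 lower, and 10 were not called, beside 23.3% higher and 22.5% lower of all genes. These counts were the same with the length offset, and DESeq2 gave 7 and 0 as well (1 was lower at an unadjusted p under 0.05, and 1 was called lower without PTH sample 1). Hsph1, an exchange factor of cytosolic HSP70, had the largest rise of that list, with a log2 fold change of 1.79 (edgeR adjusted p = 4.58e-10), and the HSP70 cochaperones Dnaja1 and Dnaja2 were higher by 0.94 and 0.97.

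Among 10 regulators of mitochondrial stress and biogenesis 4 (40%) were higher and 2 (20%) lower, where 23.3% of all genes were higher and 22.5% lower. The coactivators Ppargc1b and Ppargc1a rose by 2.89 (edgeR adjusted p = 3.90e-06) and 2.09 on the log2 scale. The stress factors Atf4 and Atf5 rose by 0.49 and 0.46, and Ddit3, which encodes CHOP, had a value of 0.09 and was not called. Gabpa, the DNA-binding subunit of GABP, fell by 0.45 (edgeR adjusted p = 4.19e-04) and the heat shock factor Hsf1 by 0.37 (edgeR adjusted p = 0.042). With the length offset Hsf1 was at -0.30 and not called (edgeR adjusted p = 0.0816). The number of regulators lower was 1 in the fits without PTH sample 1, 3 or 4 or vehicle sample 2, 3 or 4. Pth1r, the PTH receptor, fell by 0.70.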
